A study of Rattus norvegicus with 6 samples.

Results

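Aminoacyl-tRNA synthetases are the enzymes that attach each amino acid to its own transfer RNA, and their transcripts were followed here in rat gastrocnemius muscle under 3 dietary proteins. The members were taken by a rule on gene symbols, set with earlier results of these data known. It takes every symbol made of a 1-letter amino acid code other than that of proline and "ars", with or without 1 or 2. Farsa, Farsb and Eprs1 belong to the rule as well. This gave 30 single-gene rows of the array table and, with the row of highest mean kept for each symbol, 29 genes of the 14506 tested. Of these, 19 encode enzymes of the cytosol and 10, the symbols ending in 2, enzymes of the mitochondrion. Symbols of the rule without a single-gene row were not analysed here.

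All animals were male Sprague-Dawley rats made obese by diet, with free access for 8 weeks, from 12 to 20 weeks of age, to a diet high in fat and sucrose. Each diet held 4.6 kcal per gram and drew 10% of its energy from protein. That protein was casein in the control group, skim milk powder as complete dairy protein in the dairy group, and in the leucine group casein for 7.1% and free leucine for 2.9% of the energy. RNA was measured on Affymetrix Rat Gene 1.0 ST arrays, 2 per diet and 6 in all, while the design text speaks of 4 rats per diet. The labels leave unsaid whether both arrays of a diet hold different animals, and the p-values accordingly describe array-to-array spread, which may be technical.

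A synthetase recognises 1 amino acid and the matching transfer RNA, uses ATP to activate the amino acid, and transfers it to the end of the transfer RNA for use by the ribosome. The enzymes fall into 2 classes with unrelated catalytic folds, class I and class II. Several cytosolic synthetases are held together with scaffold proteins in the multisynthetase complex. Mitochondria, which make the core subunits of the respiratory chain on their own ribosomes, use a separate set of mostly distinct nuclear genes, although Gars1 and Kars1 each supply both compartments. When amino acids are scarce, the kinase GCN2 senses uncharged transfer RNA and the transcription factor ATF4 then induces many cytosolic synthetase genes. Leucyl-tRNA synthetase, the product of Lars1, has also been described as a leucine sensor upstream of mTORC1, the kinase complex that promotes protein synthesis.

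Promoter sequence gives the family a structure that does not depend on the diets. RefSeq windows of 300 bases on the GRCr8 assembly, from 250 before to 50 after the annotated start, were found for 27 members (17 cytosolic, 10 mitochondrial), all but Gars1 and Rars1. The core of the ATF4 composite element, TGATGCAA read on both strands, was in 7 of the 17 cytosolic windows and 0 of the 10 mitochondrial ones. It was in 0.743% of the 27457 windows of all genes, and in 4 of 28 windows of genes of the ATF4 amino acid response other than synthetases. This string was singled out of 13 searched after their shares had been seen, and the difference has no test. A match is a description and not a binding site. Of the 7 matches, 6 are shown because they carry this difference, each as 30 bases read 5′ to 3′ along the strand on which the match reads TGATGCAA, with the match in capitals.

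Cars1 (chr1:208225334-208225363, plus strand): tttccagaatcTGATGCAAccgcggcgccg
Iars1 (chr17:15193658-15193687, plus strand): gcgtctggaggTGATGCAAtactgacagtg
Mars1 (chr7:65023752-65023781, plus strand): ggagcccacgcTGATGCAAccggaacgggc
Nars1 (chr18:60275778-60275807, minus strand): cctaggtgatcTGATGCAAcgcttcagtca
Tars1 (chr2:62114811-62114840, plus strand): agctaaccagcTGATGCAAcgggacgccag
Yars1 (chr5:146820183-146820212, plus strand): cggagctacgagctcagcTGATGCAAcctg

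The match began 27, 24, 17 and 14 bases before the annotated start used for the window in Tars1, Iars1, Mars1 and Nars1. In Cars1 and Yars1 it began at base 18 and base 39 counted from that start. The annotated genes Iars1, Mars1 and Cars1 reach further out than that start, and their matches lie inside the gene. The looser form TGATGNAA, which contains the core, was in the same 7 windows and in 3.82% of all windows, or 3.80% with any further base required after it. The core extended by 2 bases was in 1 member window (0.0473% of all), the variant TGATGNCA in 0 (6.66%) and the first 5 bases alone, TGATG, in 12 (39.5%). Of the other strings searched on both strands, the ETS core TTCCGG was in 16 of 27 member windows (15.8% of all) and the E-box CACGTG in 5 (6.65%). CCAAT was in 12 (37.7%), the GC box GGGCGG in 15 (34.9%), the NRF1 motif in 3 (4.71%), TGACGCAA in 1 (0.565%) and TGACGTCA in 0 (1.91%). A string counted as 0 is only not in these windows. Hars1 and Hars2, the cytosolic and mitochondrial histidine enzymes, are neighbours transcribed away from each other, and the 97 bases between them are shown because both genes share them. They hold 1 ETS core (capitals).

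Hars1 to Hars2 (chr18:28672713-28672809, plus strand): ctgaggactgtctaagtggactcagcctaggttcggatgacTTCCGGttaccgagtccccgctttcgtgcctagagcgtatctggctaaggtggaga

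The values are log2 signals as deposited, so a difference of 1 is a 2-fold difference. Fast-fibre markers, which mark the main fibre type of gastrocnemius, were measured in 10 of 12 cases and their summed signal was 15.46 to 15.90 (log2) over the 6 arrays. Casein array 2 stood apart. Its mean correlation with the other arrays was 0.974, against 0.985 to 0.988 for the rest, and the protocol texts speak of liver in places. On that array the summed signal of 12 of 12 slow-fibre markers was 9.96, against 13.56 on casein array 1, 13.21 to 13.36 with dairy and 13.56 to 13.83 with leucine. The summed signal of 20 of 20 hepatocyte markers was 12.37 there, against 10.30 on casein array 1, 8.12 to 9.49 with dairy and 7.98 to 10.79 with leucine. Inflammatory transcripts, 10 of 10 measured, summed to 10.49 there, against 8.02 on casein array 1, 8.00 to 8.59 with dairy and 8.05 to 8.39 with leucine. No marker was at 0, since the lowest log2 signal of the table was 1.14. Values without this array are given beside many but not all results against casein, and a result given alone may differ without it. The part of these markers in the results was not tested. In a piece of muscle, fewer cells of a type and less RNA per cell cannot be told apart.

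The synthetases differed between arrays of the same diet by more than the typical gene did with casein and dairy, but not with leucine. The median absolute difference between the 2 arrays was 0.32 over the members with casein, 0.20 with dairy and 0.10 with leucine, against 0.16, 0.12 and 0.12 over all genes. That reference includes dim genes, while all 29 members were brighter than the median gene. In it 1647 genes had equal values on both arrays with casein, 2450 with dairy and 1774 with leucine. Genes of like brightness were not compared. A gene's highest and lowest array differed by between 0.07 (Sars1) and 1.80 (Wars1) on the log2 scale, with a median of 0.60. Casein array 2 was below the other 5 arrays in 15 of the 29 genes, where 22.1% of all genes were, and in 8 of the 10 mitochondrial genes against 7 of the 19 cytosolic ones. The median mitochondrial member stood at −0.33 relative to its own mean on that array and between −0.01 and 0.16 on the other 5. The median cytosolic member stood at −0.09 there and between −0.11 and 0.08 elsewhere. In 9 members, among them Sars1, Nars1 and Tars1, some arrays carried exactly the same value, as did 60.8% of all genes.

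**Figure D1:**
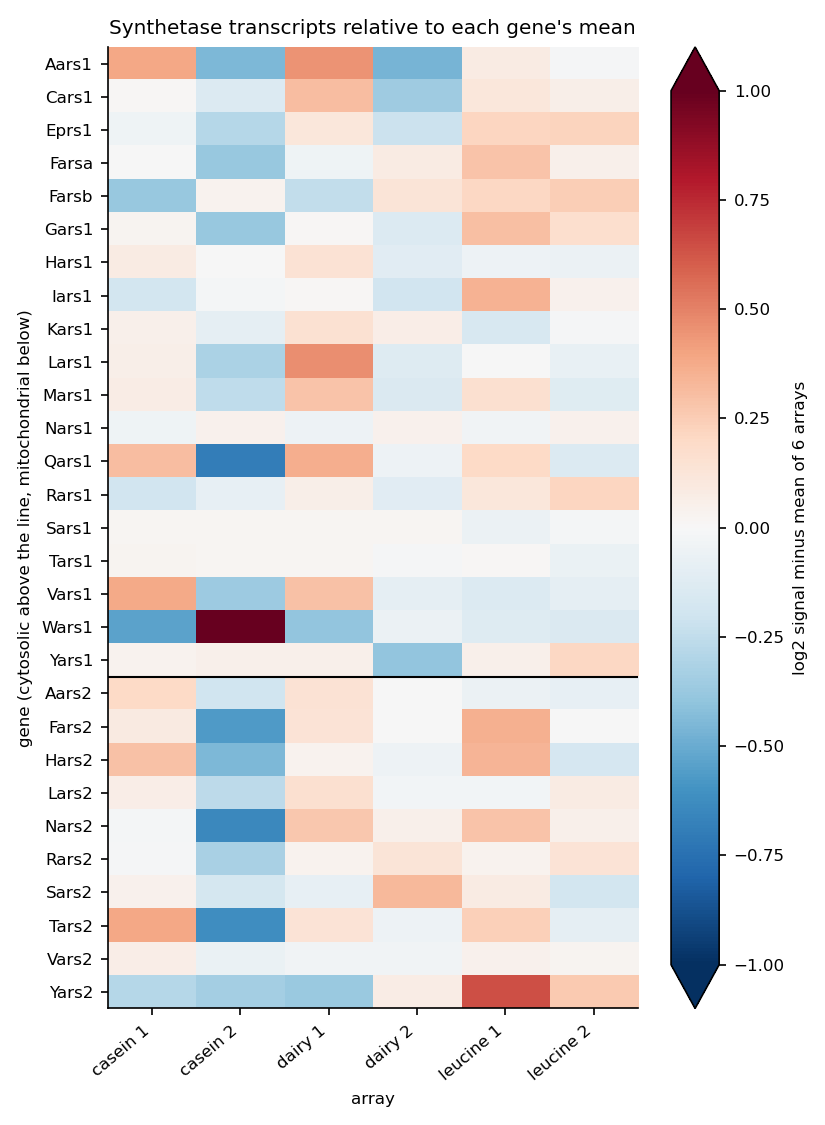
Log2 signal of each of the 29 synthetase transcripts (rows) on each of the 6 arrays (columns), minus that gene's mean over the arrays; the colour scale ends at 1 on either side. Casein array 2 holds the lowest value in 15 genes, 8 of them mitochondrial, and by far the highest for Wars1.

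The first comparison asked what free leucine in place of part of the casein changed. With leucine 22 of the 29 transcripts were higher than with casein and 7 lower, where 49.1% of all genes were higher and 50% lower, and the median log2 fold change was 0.13 (0.09 for cytosolic, 0.18 for mitochondrial members) against 0.00 over all genes. Without casein array 2 the count was 14 of 29 and the median −0.03. Among genes brighter than the median gene, which include all 29 members, the median was 0.05 over all such genes and 0.13 over the members. By limma 0 members passed an adjusted p of 0.05, as did 0% of all genes, and the lowest adjusted p among members was 0.414. An unadjusted p under 0.05 was reached by 2 members, both higher (6.90%), while it was reached by 9.61% of all genes in either direction and by 4.76% in the higher direction. Without casein array 2 it was 1 member, Rars1 (13.3% of all genes), and without casein array 1 it was 7 (19.1%). The arrays of the diets did not overlap in 11 members with leucine higher, where 15.9% of all genes were so, and in 3 with leucine lower (15.6%).

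Yars2, the mitochondrial tyrosine enzyme, had the largest fold change. Its signal was 5.75 and 5.70 on the casein arrays, 5.66 and 6.11 on the dairy arrays and 6.68 and 6.30 on the leucine arrays. Both leucine arrays were above all others. The log2 fold change against casein was 0.76 ± 0.21 (SE, 2 arrays against 2), or 1.70-fold, with an adjusted p = 0.414 by limma, and it lay between 0.57 and 0.96 when any 1 array was left out. The cytosolic counterpart Yars1 was close to level in the same comparison, at 6.19 and 6.20 with casein and 6.21 and 6.36 with leucine, a log2 fold change of 0.09 ± 0.17.

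Rars1, the arginine enzyme of the multisynthetase complex, was the other member with an unadjusted p under 0.05. It stood at 7.60 and 7.70 with casein, 7.84 and 7.67 with dairy and 7.90 and 8.00 with leucine. Both leucine arrays again lay above the other 4, by a small margin. Its log2 fold change was 0.30 ± 0.09 (adjusted p = 0.454 by limma) and stayed between 0.25 and 0.36 with any 1 array left out.

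Both leucine arrays lay above the other 4 in 7 of the 29 members, Eprs1, Farsb, Gars1, Iars1, Rars1, Yars1 and Yars2, which is 24.1% of the members against 7.89% of all genes. This count was taken after the values had been seen and has no test. It was also 7 after quantile normalization, where 11% of all genes did so. Without casein array 2 it was 7 (9.5%), but leaving out an array to be exceeded cannot lower this count. The margins were narrow in Yars1 and Iars1. Their lower leucine array was at 6.207 and 7.72, against 6.203 and 7.69 on the highest other array. Transcripts of connective tissue and macrophages were low on the same leucine arrays. The summed log2 signal of 10 of 10 fibroblast and matrix markers was 10.28 to 10.43 with leucine, against 11.42 to 11.51 with casein and 11.52 to 11.92 with dairy, and that of 15 of 15 macrophage and leukocyte markers 8.70 to 8.80, against 8.95 to 10.21 and 9.47 to 9.53. With leucine, 10 of 10 and 15 of 15 had fold changes below 0 against either diet, and 10 and 8 against casein array 1 alone, and their part in the synthetase values was not tested. Both casein arrays lay above the other 4 in 0 members (6.6% of all genes) and below them in 2, Nars2 and Rars2 (6.45%). Both dairy arrays lay above in 1, Kars1 (4.01%), and below in 0 (3.52%), and both leucine arrays lay below in 1, Sars1 (8.02%). After quantile normalization the count above was 3 for casein (6.76%) and 0 for dairy (6.54%). Of the 7 members, 3 (Eprs1, Iars1 and Rars1) are among the 7 measured synthetases of the multisynthetase complex, and Lars1, Mars1, Qars1 and Kars1 of that complex are not.

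Eprs1, the fused enzyme for glutamate and proline, was at 8.12 and 7.88 with casein, 8.28 and 7.95 with dairy, and 8.39 on both leucine arrays. Gars1, the glycine enzyme, was at 8.79 and 8.39 with casein, 8.78 and 8.62 with dairy, and 9.07 and 8.93 with leucine. Farsb, the beta subunit of the cytosolic phenylalanine enzyme, was at 7.53 and 7.95 with casein, 7.66 and 8.04 with dairy, and 8.12 and 8.16 with leucine. The leucine groups of these 3 genes did not overlap with the others. Their log2 fold changes against casein were 0.39 ± 0.15 for Eprs1, 0.41 ± 0.16 for Gars1 and 0.40 ± 0.20 for Farsb, with adjusted p-values by limma of 0.532, 0.554 and 0.627. Without casein array 2 they were 0.27, 0.20 and 0.61. Farsa, the alpha subunit that pairs with Farsb, stood at 0.36 ± 0.17, with 5.20 and 4.82 on the casein arrays, 5.15 and 5.28 on the dairy arrays and 5.48 and 5.25 on the leucine arrays, and at 0.17 without casein array 2.

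**Figure D2:**
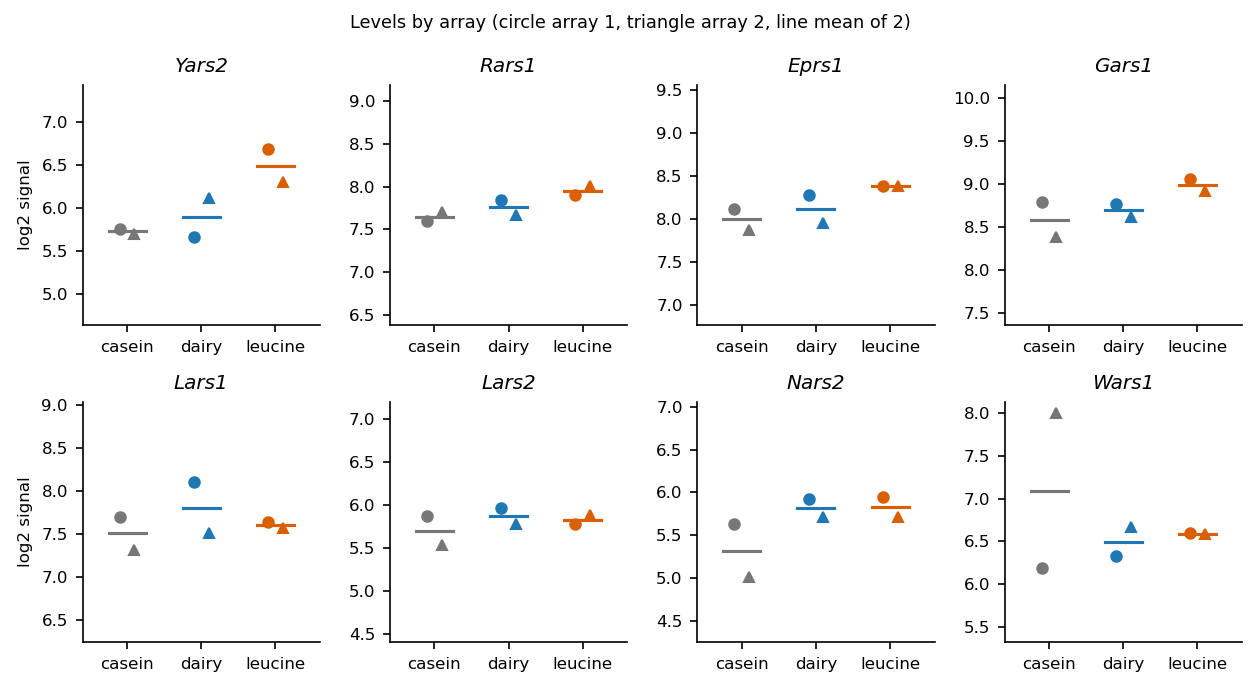
Log2 signal of 8 synthetase transcripts by diet, each point an array (circle array 1, triangle array 2) and each line the mean of the 2 arrays; all panels span 2.8 log2 units. Both leucine points lie above the other 4 for Yars2, Rars1, Eprs1 and Gars1, the diets overlap for Lars1 and Lars2, Nars2 is lowest on the casein arrays, and Wars1 is high on casein array 2 alone.

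The enzymes for the branched-chain amino acids, the group to which leucine belongs, had no common direction. Lars1, the cytosolic leucine enzyme, was at 7.70 and 7.32 with casein, 8.10 and 7.51 with dairy and 7.64 and 7.57 with leucine. Its 3 groups overlapped. The log2 fold change with leucine was 0.09 ± 0.25, and it was −0.10 without casein array 2 and −0.02 after quantile normalization. Lars2, the mitochondrial leucine enzyme, was at 5.87 and 5.54 with casein, 5.97 and 5.78 with dairy and 5.78 and 5.89 with leucine, at 0.13 ± 0.15 (−0.04 without casein array 2). These groups overlapped as well.

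Iars1, the isoleucine enzyme, was at 7.49 and 7.66 with casein, 7.69 and 7.48 with dairy and 8.02 and 7.72 with leucine, a log2 fold change of 0.30 ± 0.15 with both leucine arrays highest, and 0.14 without leucine array 1. Vars1, the valine enzyme, was at 6.86 and 6.12 with casein, 6.77 and 6.39 with dairy and 6.35 and 6.39 with leucine, at −0.12 ± 0.29, and −0.49 without casein array 2. Its mitochondrial counterpart Vars2 was at 4.32 and 4.19 with casein, 4.22 on both dairy arrays and 4.30 and 4.28 with leucine, at 0.04 ± 0.07 (−0.03 without casein array 2). The adjusted p-values of these 5 genes by limma lay between 0.624 and 0.903.

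Of the members below casein, Sars1, the cytosolic serine enzyme, was at 8.17 on all 4 casein and dairy arrays and at 8.10 and 8.13 with leucine, a log2 fold change of −0.06 ± 0.06. The signal was identical on those 4 arrays. Hars1 was at 7.16 and 7.08 with casein, 7.22 and 6.97 with dairy and 7.03 and 7.02 with leucine, at −0.09 ± 0.10. A second, dimmer row of Hars1 ran from 3.18 to 4.02, and with the mean of both rows the log2 fold change of Hars1 was 0.14. Hars2, which shares the stretch upstream, was at 5.79 and 5.05 with casein, 5.53 and 5.45 with dairy and 5.84 and 5.33 with leucine, at 0.16 ± 0.31 (−0.21 without casein array 2). In no diet pair were the arrays of Hars2 apart.

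The effect of replacing casein by the mixed proteins of milk was asked next. With dairy 22 of 29 members were higher, 6 lower and 1 equal, where 51.2% of all genes were higher and 47.6% lower, and the median log2 fold change was 0.11 (0.09 cytosolic, 0.16 mitochondrial) against 0.00. Among genes brighter than the median gene, which include all 29 members, the median over all such genes was 0.1. The members, at 0.11, were thus close to genes of that brightness. The count of higher members changed with single arrays left out and with the scaling. Without casein array 2, 13 of 29 were higher, and after quantile normalization 13 of 29 with a median of −0.01. Without dairy array 1 it was 16 of 29, with a median of 0.02. Without casein array 1 or dairy array 2 it was 22 of 29, with medians of 0.26 and 0.17. By limma 0 members passed the threshold (0% of all genes; lowest adjusted p among members 0.833) and 0 had an unadjusted p under 0.05, against 4.8% of all genes (2.49% higher, 2.31% lower). The arrays did not overlap in 3 members with dairy higher (11.5% of all genes), Kars1, Nars2 and Rars2, and in 0 with dairy lower (11.7%).

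Nars2, the mitochondrial asparagine enzyme, had the smallest p. It was at 5.63 and 5.01 with casein, 5.92 and 5.71 with dairy and 5.94 and 5.71 with leucine, so the casein arrays were lowest and the other diets alike. The log2 fold change with dairy was 0.49 ± 0.24 (adjusted p = 0.833 by limma), and 0.18 without casein array 2. Rars2, the mitochondrial arginine enzyme, showed the same order at 4.27 and 3.96 with casein, 4.32 and 4.41 with dairy and 4.32 and 4.43 with leucine. Its log2 fold change with dairy was 0.25 ± 0.13, and 0.10 without casein array 2. Both comparisons use the same casein arrays, so the fold changes of Nars2 and Rars2 with leucine, 0.50 ± 0.24 and 0.26 ± 0.13 (0.19 and 0.10 without casein array 2), are not separate evidence.

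Wars1, the cytosolic tryptophan enzyme, whose gene is known to be induced by interferon gamma, had the widest spread. It was at 6.19 and 7.99 with casein, 6.33 and 6.66 with dairy and 6.60 and 6.58 with leucine. The value of casein array 2 lay alone above the rest. The log2 fold change was −0.60 ± 0.62 with dairy and −0.50 ± 0.62 with leucine, and turned to 0.30 and 0.40 without that array. Relative to gene means, the medians on that array were 1.45 for inflammatory, 1.98 for hepatocyte and 0.63 for macrophage and leukocyte transcripts. Slow-fibre transcripts stood at −2.96 there. A link of any of these lists to Wars1 was not tested. Wars1 was the single member for which casein array 2 was the highest of the 6 arrays, a position it held in 21.5% of all genes.

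The largest gaps within a diet also concerned casein array 2. Qars1, the glutamine enzyme, was at 7.66 and 6.66 with casein, 7.71 and 7.30 with dairy and 7.54 and 7.21 with leucine. Tars2, the mitochondrial threonine enzyme, was at 6.29 and 5.29 with casein, 6.04 and 5.86 with dairy and 6.15 and 5.82 with leucine. In Tars2 the casein arrays enclosed all others and in Qars1 all but dairy array 1, so no diet stood apart. Aars1, the alanine enzyme, differed within casein (7.73 and 6.89) and equally within dairy (7.79 and 6.87), with 7.42 and 7.33 on the leucine arrays. Yars1 was lowest on dairy array 2, at 5.76 against 6.19 to 6.36 elsewhere, and its log2 fold change with dairy of −0.22 ± 0.17 was 0.01 without that array.

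**Figure D3:**
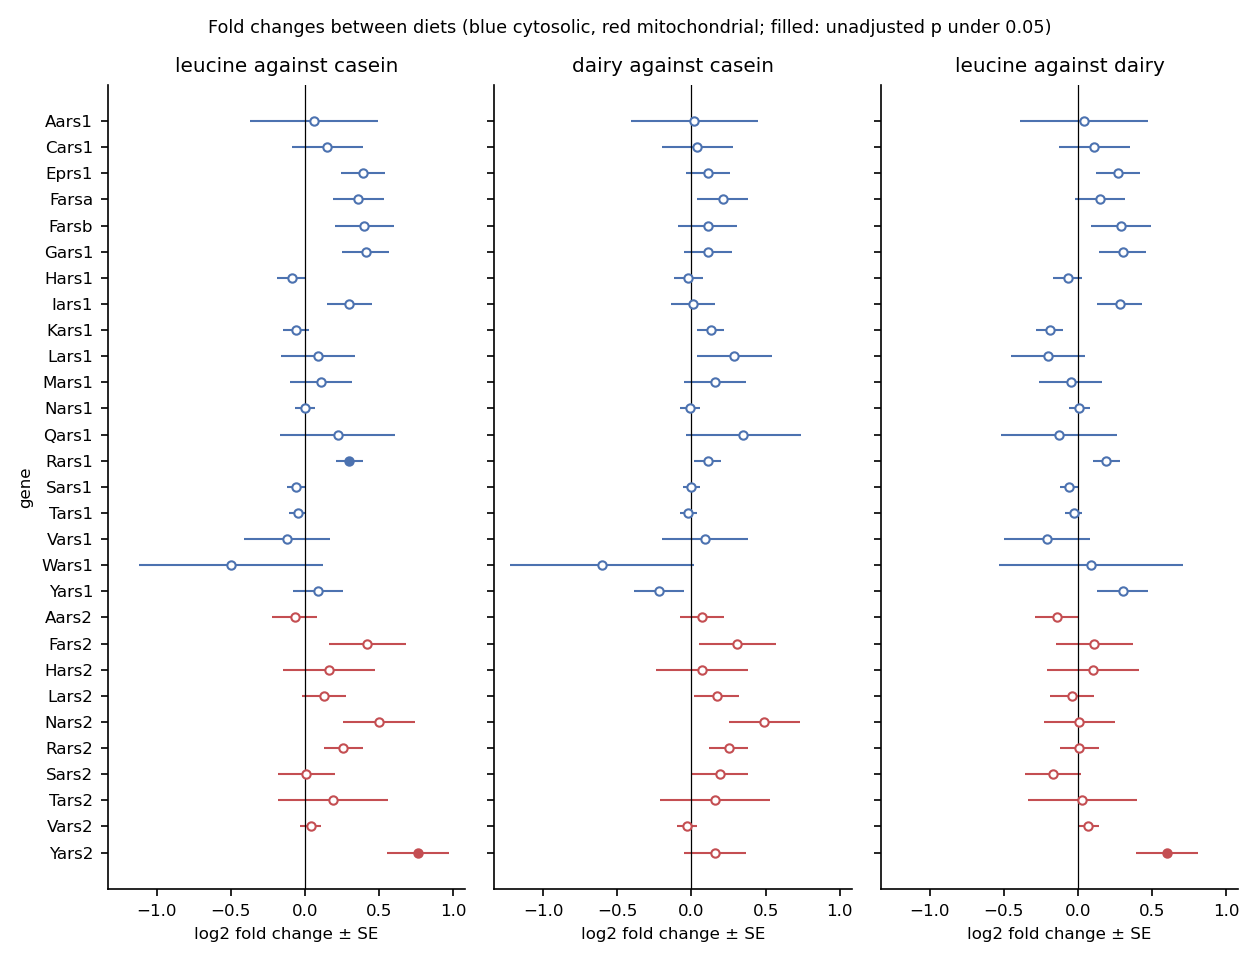
Log2 fold change of each of the 29 synthetase transcripts in the 3 comparisons, with the standard error of the limma model as bars; filled points have an unadjusted p under 0.05 and none passed an adjusted p of 0.05. Filled points are Rars1 and Yars2 for leucine against casein and Yars2 for leucine against dairy, and Wars1 has the widest error.

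The third comparison set free leucine against complete dairy protein and does not use the casein arrays for its means. With leucine 18 of 29 members were higher and 11 lower than with dairy (49% of all genes in each direction), with a median log2 fold change of 0.03 against 0.00 over all genes. Over the genes brighter than the median gene it was −0.03. By limma 0 members passed the threshold (0% of all genes; lowest adjusted p 0.849), and 1 had an unadjusted p under 0.05, where 5.7% of all genes did (2.25% higher, 3.45% lower). That gene was Yars2, at 0.60 ± 0.21 or 1.52-fold, with no overlap of the arrays. It was 0.38 without dairy array 1, 0.41 without leucine array 1 and at most 0.83 with any 1 array left out. In a fit of the 4 dairy and leucine arrays alone it was Gars1 instead, so which member came first depended on the arrays that set the spread. The arrays did not overlap in 8 members with leucine higher (13.4% of all genes) and in 3 with leucine lower (14.9%). Rars1 stood at 0.19 ± 0.09 (0.11 to 0.28 with any 1 array left out), Eprs1 at 0.27 ± 0.15, Gars1 at 0.30 ± 0.16 and Iars1 at 0.28 ± 0.15. Lower with leucine were Kars1, the lysine enzyme (9.31 and 9.22 with dairy, 9.00 and 9.14 with leucine, 9.21 and 9.06 with casein), at −0.19 ± 0.09, and Lars1 at −0.20 ± 0.25, or 0.09 without dairy array 1.

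By enzyme class, 12 of 14 class I members and 10 of 15 class II members were higher with leucine than with casein, with medians of 0.14 and 0.06. With casein array 2 left out these were 8 of 14 and 6 of 15, with medians of 0.09 and −0.06. Both members with an unadjusted p under 0.05 were of class I. The difference between the classes was not tested. Of the 9 amino acids with a cytosolic and a mitochondrial enzyme among the members, 4 had fold changes of the same sign in both compartments with leucine against casein, 3 with dairy against casein and 5 with leucine against dairy. The counts against casein were 9 of 9 with leucine and 7 of 9 with dairy when casein array 2 was left out. The cytosolic members with the ATF4 core in the window had a median log2 fold change of 0.09 with leucine (6 of 7 higher), and the 10 without it a median of 0.02 (5 of 10 higher). With dairy these medians were 0.01 and 0.11. On leaving out casein array 2 they were 0.04 (4 of 7 higher) and −0.08 (4 of 10 higher) with leucine, and −0.03 and 0.01 with dairy. Gars1 and Rars1 have no window and are in neither group. Their log2 fold changes were 0.41 and 0.30 with leucine, above the medians of both groups, and 0.11 each with dairy. Without casein array 2 they were 0.20 and 0.36 with leucine. The difference between the groups depends on this exclusion and was not tested.

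Other genes of the pathway were examined as lists. The genes of the ATF4 amino acid response had no common direction with leucine against casein. Of 30 measured, 12 were higher and 18 lower, with a median of −0.06, 0 with an unadjusted p under 0.05 in the higher direction (4.76% of all genes) and 5 in the lower (4.85%), among them Nupr1, a stress-induced chromatin protein (−0.81 ± 0.16), Eif4ebp1, a repressor of translation initiation (−0.76 ± 0.19), and Psph, an enzyme of serine synthesis (−0.28 ± 0.08). Atf4 itself stood at 0.11 ± 0.14, and at 0.27 without casein array 2. None passed after adjustment, and without casein array 2 the list had 17 of 30 higher and a median of 0.02. In that fit the amino acid transporter genes Slc38a2 and Slc3a2 stood at 0.72 and 0.56 with leucine, and at 0.51 and 0.65 with dairy. With all arrays they stood at 0.14 ± 0.41 and 0.01 ± 0.39 with leucine. Casein array 1 was the lowest array for both (9.50 and 8.04, against 10.66 and 9.14 on casein array 2). Without casein array 2, Nupr1 stood at −0.89, Eif4ebp1 at −0.50 and Psph at −0.27 with leucine. Psph, like some other genes of the list, was dim. Its signal ran from 2.95 to 3.32, where the median gene of an array stood at 4.06 to 4.2. With dairy against casein 7 of the 30 were higher and 23 lower, with a median of −0.06. Without casein array 2, 17 were higher with dairy, with a median of 0.01.

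The 3 scaffold proteins of the multisynthetase complex differed among themselves. Aimp1 was at 7.43 and 7.38 with casein, 7.72 and 7.67 with dairy and 7.85 and 7.79 with leucine, so the 3 diets did not overlap. Its log2 fold change was 0.41 ± 0.06 with leucine (adjusted p = 0.353 by limma) and 0.29 ± 0.06 with dairy (adjusted p = 0.833), and 0.39 and 0.27 without casein array 2. Aimp2 stood at 0.00 ± 0.25 and Eef1e1 at 0.08 ± 0.32 with leucine, or −0.25 and 0.51 without casein array 2. Of the 4 measured synthetase-related genes outside the symbol rule, Tars3, a second cytosolic threonine enzyme, stood at 0.45 ± 0.14 with leucine and 0.27 without casein array 2, and Pars2, the mitochondrial proline enzyme, at 0.03 ± 0.09.

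Mitochondrial translation factors, which work beside the mitochondrial synthetases, were higher with leucine than with casein in 12 of 12 measured genes, with a median of 0.26. Of the 12, 5 had an unadjusted p under 0.05, all higher, beside 9.61% of all genes. With dairy, against the same casein arrays, 11 of 12 were higher, with a median of 0.15. Gfm2, a ribosome recycling factor, was at 5.99 and 5.56 with casein, 5.99 and 6.14 with dairy and 6.57 and 6.41 with leucine, at 0.71 ± 0.17. Guf1, a ribosome-bound GTPase, stood at 0.57 ± 0.14 with leucine and 0.38 ± 0.14 with dairy. Mrrf, another recycling factor, stood at 0.25 ± 0.07 with leucine and 0.33 ± 0.07 with dairy. Without casein array 2 the leucine values were 0.50 for Gfm2, 0.40 for Guf1 and 0.26 for Mrrf. Over all genes 0 of the 12 passed by limma. Without casein array 2, 11 of 12 were higher with leucine, with a median of 0.25, and 8 of 12 with dairy, with a median of 0.10. The mitochondrial synthetases measured on the same arrays had a median of 0.18 with leucine, and −0.03 without that array. Cytosolic elongation factors were lower with leucine in 6 of 8 genes with a median of −0.12, and Eef1a1, which carries charged transfer RNA to the ribosome, stood at −0.50 ± 0.17 (unadjusted p = 0.0409 by limma). The median was −0.22 without casein array 2, and Eef1a1 then stood at −0.33 ± 0.18 (unadjusted p = 0.169 by limma).

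**Figure D4:**
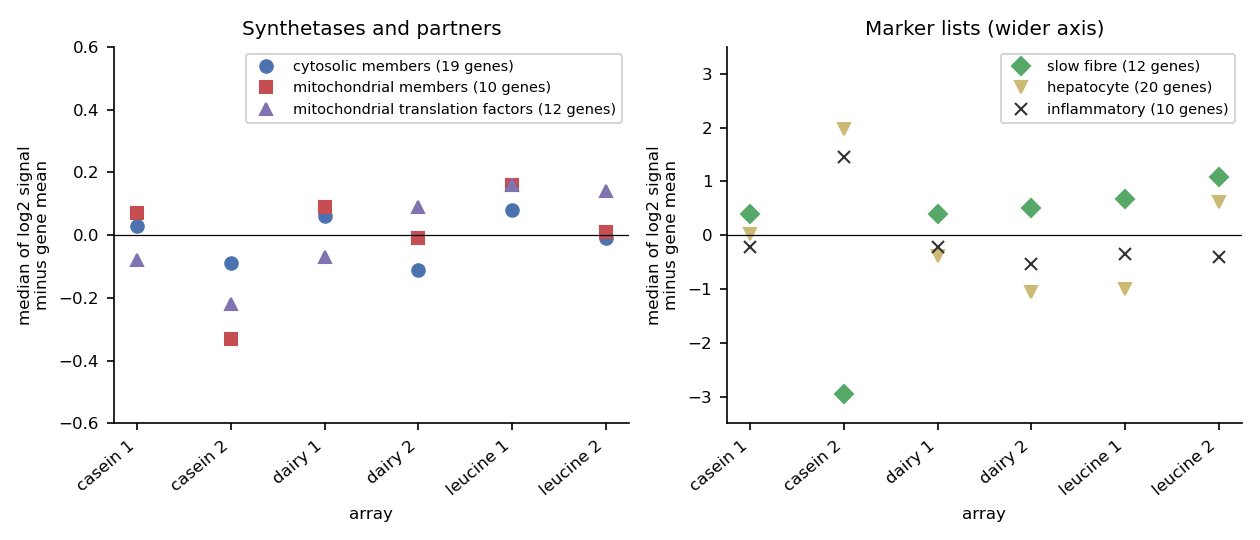
Median over each gene list of the log2 signal minus the gene's mean over the 6 arrays, by array; left, the cytosolic and mitochondrial synthetases and mitochondrial translation factors, right, on a wider axis, slow-fibre, hepatocyte and inflammatory transcripts. On casein array 2 the mitochondrial synthetases are at −0.33, slow-fibre transcripts at −2.96, hepatocyte transcripts at 1.98 and inflammatory transcripts at 1.45.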

How the data were processed

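The authors deposited a log2 signal for each transcript cluster on each array. The submitters' processing notes name Affymetrix Expression Console. Version, background correction and normalization are not given in the sources used here. Of 29214 clusters, 15310 had 1 gene in the platform annotation. Symbols were updated through the gene identifier, and the cluster with the highest mean was kept for each, leaving 14506 genes with no filter on dim genes. Diets were compared with limma 3.58.1 in R 4.3.3 in a single fit of all 6 arrays with diet as the only term (3 residual degrees of freedom), with Benjamini-Hochberg adjustment over all genes and a threshold of 0.05. The fit was tested on simulated data. Differences between arrays 1 and 2 correlated across genes at 0.0865 (casein and dairy), 0.179 (casein and leucine) and 0.0536 (dairy and leucine), so replicate numbers were not taken as pairs. The number of arrays limits the precision.

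The members and gene lists were chosen with earlier results of these data known, and the promoter string reported first was picked from 13 after their shares were seen. Described array by array were the branched-chain enzymes, the 2 members with the smallest p per direction and comparison, and the members of highest and lowest mean in each compartment (Kars1, Farsa, Yars2 and Vars2). Eprs1, Gars1, Farsb, Qars1, Tars2, Aars1 and Hars2 were added after their values were seen. Alternatives were quantile normalization, a filter on dim genes (all 29 members passed), the replicate block, the mean of a gene's rows, a fit on the arrays of the 2 diets alone, a trended robust prior and leaving out each array. The alternatives for the related lists, the enzyme classes, the pairs, the promoter core split and the counts of a diet above the other 4 arrays were chosen after seeing the data. Promoter windows were the first listed per gene in RefSeq (GRCr8). The sequence of 1 match is not reported here.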

Additional observations from a re-analysis of the deposited data

How the results depend on the processing

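The count of members past an adjusted p of 0.05 was 0 in every comparison under each alternative run, single arrays left out included. The count with an unadjusted p under 0.05 in leucine against casein, 2, was 1 after quantile normalization, 1 with the filter on dim genes, 1 with the trended robust prior, and 0 to 7 with single arrays left out. It was 7 without casein array 1, that is against casein array 2 alone (19.1% of all genes then), 1 without casein array 2 or leucine array 2, and 0 without leucine array 1. In dairy against casein it was 0 to 4, the highest without casein array 1, and in leucine against dairy 0 to 3, the highest without dairy array 1. With the replicate number as a block, a pairing that the check of the arrays did not bear out, these counts were 5, 1 and 0, and the cytosolic and mitochondrial medians were the same. With quantile normalization the cytosolic median in dairy against casein was −0.02, against 0.09.

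Leaving out single arrays gave medians of 0.04 to 0.22 (cytosolic) and −0.03 to 0.47 (mitochondrial) in leucine against casein, −0.04 to 0.17 and −0.01 to 0.37 in dairy against casein, and −0.05 to 0.09 and −0.09 to 0.10 in leucine against dairy. Directions turned for log2 fold changes near 0. Under quantile normalization Lars1 was at −0.02 in leucine against casein, Iars1 at −0.12 and Vars1 at −0.01 in dairy against casein, and Lars2 at 0.01 in leucine against dairy. With the mean of its rows Hars1 was at 0.14 in leucine against casein. With single arrays left out, the ranges in leucine against casein were −0.10 to 0.28 (Lars1), −0.49 to 0.25 (Vars1), −0.04 to 0.29 (Lars2), −0.03 to 0.10 (Vars2) and −0.14 to 0.01 (Kars1). In dairy against casein they were −0.44 to 0.01 (Yars1), −1.50 to 0.30 (Wars1), −0.09 to 0.11 (Iars1), −0.28 to 0.46 (Vars1), −0.10 to 0.03 (Vars2) and −0.06 to 0.38 (Yars2), and in leucine against dairy −0.50 to 0.09 (Lars1) and −0.13 to 0.05 (Lars2). The cause of these changes was not tested.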
